A study of Homo sapiens with 24 samples.

Results

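Small nucleolar RNAs (snoRNAs) and the genes that carry them were followed in CD18/HPAF cells, an established human pancreatic cancer cell line. Members were the rows of the deposited expression table with a SNORA, SNORD, SCARNA or numbered SNHG name, together with GAS5, ZFAS1, METTL12 and CCT6P1, and they came to 397 of 30276 rows. A row that also carried a ribosomal protein, translation factor, heat shock or nucleolar protein name would have been left out, which applied to 0 rows. The members comprised 28 host rows, which name a gene other than SNORA, SNORD or SCARNA, and 369 lone rows, which name only such small RNAs. RNA was sequenced from 12 samples exposed to 1 µM ISOX, which is directed mainly at the deacetylase HDAC6, for 48 h and from 12 samples without treatment, for which the labels name no vehicle. The first number in the sample titles takes 3 values and the second takes 4 in each group, and the sources used here do not say whether samples came from separate cultures. For each row and group the table gives 1 pooled FPKM, a count of sequenced fragments scaled for transcript length and for the mapped fragments of the library. These values carry no SD, no test was run on them here, the depth is unknown, and each comparison below sets 1 pooled value against another.

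Most human snoRNAs are cut from introns of a host transcript. Those with boxes C and D (SNORD genes) mostly guide the methylation of ribose in ribosomal RNA, those with boxes H and ACA (SNORA genes) mostly guide the change of uridine to pseudouridine, and the SCARNA genes act in Cajal bodies on spliceosomal RNAs. Many hosts make no protein, begin with a tract of pyrimidines that ties their translation to growth signals, and have spliced transcripts that are degraded by nonsense-mediated decay. A row of a host and a row of its small RNA thus describe products of 1 transcript.

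The snoRNAs on which the values below turn are shown first, as sequences of GENCODE release 29 on hg38. Capitals mark box C (TGATGA) and box D (CTGA) in the box C/D members, and the ACA box near the end in the box H/ACA members. SNORD23 had a higher value in ISOX cells, SNORD21 had a value in ISOX cells only, and SNORD33 and SNORD99 had a value in untreated cells only. In SNORD99 the exact letters TGATGA were not found. They lie on chr19:47755853-47755962 (plus strand), chr1:92837289-92837383 (plus), chr19:49490615-49490699 (plus) and chr1:28578749-28578822 (minus).
SNORD23: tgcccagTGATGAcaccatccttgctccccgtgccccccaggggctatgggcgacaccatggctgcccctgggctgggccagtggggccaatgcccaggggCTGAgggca
SNORD21: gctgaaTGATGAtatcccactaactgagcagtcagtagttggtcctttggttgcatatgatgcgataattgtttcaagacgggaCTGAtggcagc
SNORD33: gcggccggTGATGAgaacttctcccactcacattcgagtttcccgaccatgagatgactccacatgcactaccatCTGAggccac
SNORD99: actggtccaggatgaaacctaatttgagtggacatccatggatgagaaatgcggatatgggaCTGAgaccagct

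Of the box H/ACA members, SNORA15 and SNORA33 had the largest ratios in either direction among lone rows, and SNORA57 and SNORA22 lie within the host rows with the largest ratios, METTL12 and CCT6P1. They lie on chr7:56060470-56060602 (plus), chr6:132817219-132817348 (plus), chr11:62665422-62665570 (plus) and chr7:65755526-65755659 (plus).
SNORA15: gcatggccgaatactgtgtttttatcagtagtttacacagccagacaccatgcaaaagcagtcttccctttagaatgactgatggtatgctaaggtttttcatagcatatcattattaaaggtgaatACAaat
SNORA33: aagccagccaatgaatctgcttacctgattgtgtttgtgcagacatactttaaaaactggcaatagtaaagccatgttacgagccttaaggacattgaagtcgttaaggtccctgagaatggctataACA
SNORA57: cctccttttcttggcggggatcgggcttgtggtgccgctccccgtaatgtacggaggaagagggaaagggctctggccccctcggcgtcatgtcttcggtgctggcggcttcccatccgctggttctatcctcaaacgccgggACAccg
SNORA22: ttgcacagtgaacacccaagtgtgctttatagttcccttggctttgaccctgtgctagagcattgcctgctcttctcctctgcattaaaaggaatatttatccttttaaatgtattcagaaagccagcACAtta
Over all GENCODE sequences with such names, TGATGA was found in 223 of 288 SNORD sequences (77.4%) and a terminal ACA in 134 of 149 SNORA sequences (89.9%).

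Host rows were mostly higher in ISOX cells, as were most rows of the table. Of 28 host rows, 23 had a value in both groups, and 5 of these were 2-fold or more higher with ISOX (21.7%), against 6.82% of all 16456 rows with both values. A further 2 were 2-fold or more lower (8.7%), against 3.97% of all rows. METTL12 and ZFAS1, both among the 5 higher rows, were members only because they were listed by name. Since members were chosen with earlier results of these data known, these shares are descriptions and no test of an excess. The median log2 ratio of ISOX over untreated FPKM was 0.48 over the host rows and 0.20 over all rows, so that the whole table was shifted upward. A log2 ratio above 0 was given by 20 of the 23 host rows (87%), against 71.1% of all rows. Relative to the shift of the table, 16 host rows were above and 7 below. The host rows summed to 3043 FPKM in ISOX cells and 2101 FPKM in untreated cells. In bulk RNA, fewer cells of a kind and less RNA per cell cannot be told apart, and FPKM is relative to the other RNA of the library. The cells' identity was checked with 6 epithelial genes, which spanned 82.3 to 3325 FPKM in ISOX cells and 85.1 to 2970 FPKM in untreated cells, with KRT19 the highest. Among markers of other cell types, the leukocyte gene PTPRC had 0.0118 FPKM in ISOX cells and 0.00579 FPKM in untreated cells, COL1A1 of fibroblasts had 2.75 FPKM in ISOX cells and 2.48 FPKM in untreated cells, and the acinar gene PRSS1 was at 0 in both groups.

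**Figure D1:**
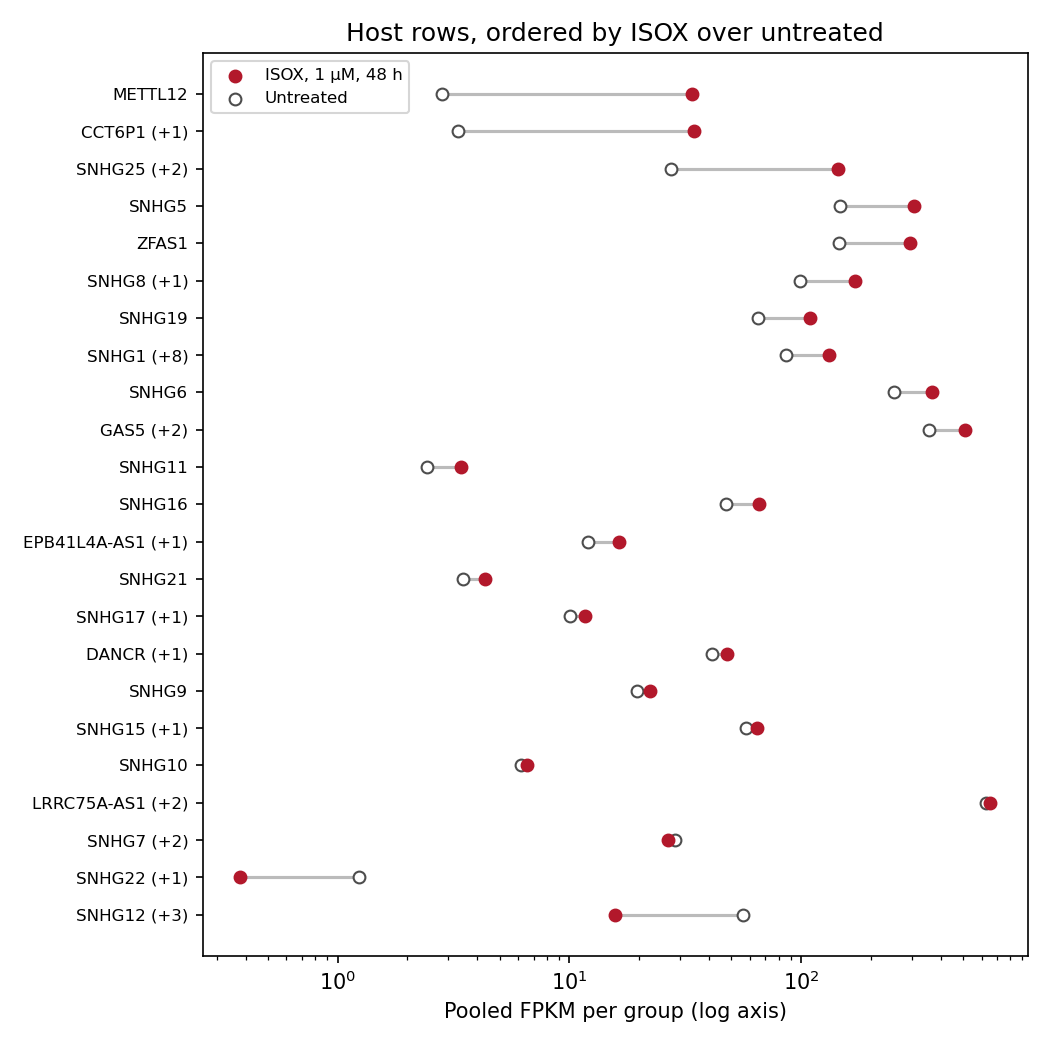
Pooled FPKM of the 23 host rows with a value in both groups, on a log axis (filled, ISOX; open, untreated; no error bars, as there is 1 pooled value per group). A number in brackets counts further names joined in the row. 20 rows lie to the right with ISOX (87%, against 71.1% of all rows), METTL12 and CCT6P1 farthest, and SNHG7, SNHG22 and SNHG12 lie to the left.

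The largest ratio was that of METTL12, which encodes a mitochondrial methyltransferase of citrate synthase and carries SNORA57. METTL12 had 33.9 FPKM in ISOX cells and 2.81 FPKM in untreated cells, a 12.1-fold higher value. In GENCODE the gene is called CSKMT and spans chr11:62665309-62668496, and SNORA57 overlaps an exon of at least 1 of its transcripts. The other rows of the same locus differed far less: UQCC3 had 35.9 FPKM in ISOX cells and 29.6 FPKM in untreated cells, and the joined row of C11orf98 and LBHD1 had 107.9 FPKM in ISOX cells and 102.6 FPKM in untreated cells. No small RNA at this locus had a row of its own, so that fragments of SNORA57 and of the messenger RNA cannot be told apart.

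CCT6P1, a transcribed pseudogene of the chaperonin subunit gene CCT6A, was joined in 1 row with SNORA22. The row had 34.6 FPKM in ISOX cells and 3.29 FPKM in untreated cells, 10.5-fold higher. The related genes had other ratios: CCT6A had 183.6 FPKM in ISOX cells and 134.9 FPKM in untreated cells, and CCT6P3 had 2.01 FPKM in ISOX cells and 1.91 FPKM in untreated cells. Since the pseudogene resembles its parent, the assignment of fragments between such copies is uncertain. SNORA22 lies in an intron of CCT6P1, as annotated on chr7:65751142-65763354, and so does SNORA15B-2, which the row does not name. The share of the joined value that belongs to these small RNAs cannot be told.

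SNHG25, joined with SNORA76C and SNORD104, had 144.6 FPKM in ISOX cells and 27.5 FPKM in untreated cells, 5.26-fold higher. As in every joined row, the share of the small RNAs in this value cannot be told. TEX2, at the same locus, had 5.65 FPKM in ISOX cells and 5.21 FPKM in untreated cells. SNHG5, the host of SNORD50A and SNORD50B, had 307.3 FPKM in ISOX cells and 147.6 FPKM in untreated cells, 2.08-fold higher. ZFAS1, the host of the SNORD12 genes, which starts beside ZNFX1 on the opposite strand, had 295.8 FPKM in ISOX cells and 145.9 FPKM in untreated cells, 2.03-fold higher. ZNFX1 itself had 6.58 FPKM in ISOX cells and 6.45 FPKM in untreated cells. Since the strand setting of the counting is not known, reads of such overlapping genes on opposite strands cannot be told apart. SNHG5 and ZFAS1 lay just past 2-fold and were below it once the median of all rows was subtracted, with log2 ratios of 0.86 and 0.82.

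The 2 host rows that were lower differed widely in level. SNHG12, joined with SNORA16A, SNORA44 and SNORA61, had 15.7 FPKM in ISOX cells and 55.8 FPKM in untreated cells, 3.55-fold lower. Here too the share of the joined small RNAs cannot be told. TRNAU1AP, in the same locus, had 13.4 FPKM in ISOX cells and 11.0 FPKM in untreated cells, so that the difference at SNHG12 was not shared by its neighbour. SNORD99, which lies in an intron of SNHG12, had a row of its own at 0 in ISOX cells and 1036 FPKM in untreated cells, the highest value among small RNAs seen in untreated cells only. SNHG22, joined with SCARNA17, had 0.381 FPKM in ISOX cells and 1.24 FPKM in untreated cells, and with 1 FPKM added to both groups its log2 ratio was -0.70.

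Most of the abundant hosts lay below 2-fold. SNHG8, joined with SNORA24, had 170.4 FPKM in ISOX cells and 98.9 FPKM in untreated cells. SNHG19, which carries SNORD60, had 109.0 FPKM in ISOX cells and 65.1 FPKM in untreated cells. SNHG1, whose row joins 8 SNORD names, had 132.0 FPKM in ISOX cells and 86.1 FPKM in untreated cells. These 3 were between 1.5-fold and 2-fold higher, and 8 host rows in all were 1.5-fold or more higher (34.8%), against 16.9% of all rows. SNHG6, the host of SNORD87, had 366.7 FPKM in ISOX cells and 251.4 FPKM in untreated cells. GAS5, a growth arrest transcript joined here with SNORD44 and SNORD78, had 510.5 FPKM in ISOX cells and 357.6 FPKM in untreated cells. SNHG6 was 1.46-fold and GAS5 1.43-fold higher.

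SNHG16, the host of SNORD1A, SNORD1B and SNORD1C, had 65.8 FPKM in ISOX cells and 47.3 FPKM in untreated cells. SNHG15, joined with SNORA9, had 64.2 FPKM in ISOX cells and 57.7 FPKM in untreated cells. SNHG7, joined with SNORA17 and SNORA43, was the remaining host row below a log2 ratio of 0, at 26.5 FPKM in ISOX cells and 28.6 FPKM in untreated cells. The other named hosts were of lower level. SNHG9, which carries SNORA78, had 22.2 FPKM in ISOX cells and 19.6 FPKM in untreated cells, and SNHG17, joined with SNORA71B, had 11.7 FPKM in ISOX cells and 10.0 FPKM in untreated cells. SNHG10, which carries SCARNA13, had 6.55 FPKM in ISOX cells and 6.20 FPKM in untreated cells. SNHG21, which carries SCARNA15, had 4.30 FPKM in ISOX cells and 3.47 FPKM in untreated cells. SNHG11, which carries SNORA60 and SNORA71E, had 3.39 FPKM in ISOX cells and 2.43 FPKM in untreated cells. SNHG18 and SNHG24 were at 0 in both groups.

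A further 3 joined hosts with values were members only through the small RNA in their row. They are given although the rule for named genes did not require them, and each differed by less than 1.5-fold between the groups. LRRC75A-AS1, joined with SNORD49A and SNORD49B, was the most abundant host row in both groups, at 652.8 FPKM in ISOX cells and 628.6 FPKM in untreated cells. DANCR, joined with SNORA26, had 47.8 FPKM in ISOX cells and 41.3 FPKM in untreated cells. EPB41L4A-AS1, joined with SNORA13, had 16.4 FPKM in ISOX cells and 12.04 FPKM in untreated cells. The remaining 3 rows joined a microRNA with a snoRNA (MIR664A with SNORA36B, MIR1291 with SNORA34, MIR3651 with SNORA84) and were at 0 in both groups. These count as host rows by their names alone. Of the 23 host rows with values, 13 joined a small RNA name and 10 did not. The joined rows held 2 of the 5 higher and both of the lower calls, with a median log2 ratio of 0.23. The rows with a host name alone held 3 higher and 0 lower calls, with a median of 0.51. Of those 3, METTL12 and ZFAS1 were members only because they were listed by name. A host name alone does not mean that a row is free of small RNA fragments. SNORA57 overlaps an exon of METTL12 and has no row of its own there.

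The start sites of the hosts were read from RefSeq promoters (GRCh38.p14), which were found for 19 host rows, 18 of them with a value in both groups. The letters CTTT, on the strand of the gene, stood between 5 bases before and 25 bases after the annotated start in 7 of the 18 (38.9%), against 4113 of 35116 promoters of all genes (11.7%). They began exactly at the start in 4 of the 18 (22.2%), against 0.914% of all promoters. These 4 were METTL12, SNHG5, ZFAS1 and SNHG19, and the other 3 were SNHG8, SNHG16 and SNHG12. METTL12 and ZFAS1 were members only because they were listed by name, with earlier results of these data known. The shares are therefore descriptions and no test of an excess. No promoter was found for SNHG25, CCT6P1, SNHG6, SNHG15 and SNHG9, which have values in both groups. Both directions occurred among hosts with this motif, since SNHG12 was 3.55-fold lower and the other 6 were higher in ISOX cells. The match in SNHG8 lay before the start. C or T made up 40% (SNHG8) to 86.7% (SNHG12) of the first bases from the start in hosts with CTTT. In hosts with values but without CTTT the range was 40% (SNHG21) to 80% (SNHG1), so the ranges overlapped in the windows read. GAS5 is counted here as without CTTT. Its window, chr1:173869021-173869050, lies outside the GENCODE span of the gene, chr1:173863900-173868882, and need not hold the start of the transcript measured. The first promoter entry of each host was read, and a match of letters describes that window only. The windows of the noncoding hosts are shown with CTTT in capitals, the annotated start being the sixth base. They lie on chr20:49278637-49278666 (plus), chr6:85678709-85678738 (minus), chr16:2155334-2155363 (minus), chr4:118278757-118278786 (plus), chr17:76557759-76557788 (plus) and chr1:28581849-28581878 (minus).
ZFAS1: tcgttCTTTcgcgtctgcggtgcccggagt
SNHG5: tcggtCTTTtacgtcggccttcgcgagcgt
SNHG19: cctgtCTTTtcggggtcgagtccgaggggg
SNHG8: cCTTTcacattcgggaagcgtcgggattag
SNHG16: gtctcgcgttCTTTtcgaggtcggccgcgt
SNHG12: agcgccCTTTctccccgccgcattcccggt

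Lone small RNA rows were mostly at 0, and those with values in both groups had a median log2 ratio near 0. Rows of other small RNAs had this too, but not an overlapping set of other rows under 300 bases. Of 369 lone rows, 48 had a value in at least 1 group (13.0%) and 321 were at 0 in both groups. A value was given for 27 of 83 SNORA rows (32.5%), 6 of 18 SCARNA rows (33.3%) and 15 of 268 SNORD rows (5.6%). Rows of other small RNAs (microRNA, small nuclear, Y and vault RNA names) had a value in 59 of 2030 cases (2.91%). The 115 rows of the imprinted SNORD113 to SNORD116 clusters were at 0, as were 34 lone rows placed on alternate haplotypes. Of the 45 lone rows that share a locus with a host row, 40 were at 0 in both groups, including SNORD12, SNORD12B and SNORD12C beside ZFAS1, SNORD50A and SNORD50B beside SNHG5, and SNORD60 beside SNHG19. These 40 also include 15 SNORD114 rows, already among the 115, beside SNHG24, and SNORD123 beside SNHG18. SNHG24 and SNHG18 were themselves at 0 in both groups. The libraries were made with a TruSeq RNA kit from mirVana extracts and read as pairs of 75 bases, which is close to the length of many SNORD genes.

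Of the 48 lone rows with a value, 25 had one in both groups, 14 in ISOX cells only (29.2%) and 9 in untreated cells only (18.8%). Over all 18420 rows with a value these shares were 5.47% in ISOX cells only and 5.19% in untreated cells only, and over the 59 rows of other small RNAs 23.7% in ISOX cells only and 20.3% in untreated cells only, close to those of the lone rows. Among the 25, 4 were 2-fold or more higher with ISOX (16%), against 6.82% of all rows, and 1 was 2-fold or more lower (4%), against 3.97% of all rows. Their median log2 ratio was -0.03, against 0.48 over host rows and 0.20 over all rows, and 10 were above and 15 below the median of all rows. The 33 rows of other small RNAs with values in both groups had a median of -0.01, with 18.2% 2-fold or more higher and 12.1% lower. A second set held rows of a single name under 300 bases that are no members, and by this definition takes in other small RNAs of that length. The overlap was not counted, but the totals were close. The second set had 2051 rows and 155153 FPKM in ISOX cells, and the rows of other small RNAs had 2030 rows and 154488 FPKM. The 23 of these with values in both groups had a median of 0.245, with 30.4% higher and 4.35% lower. A median near 0 was thus given by the rows of other small RNAs but not by this second set. Since the sets overlap and few rows had values, this contrast is no separate comparison with another kind of short row. At 1.5-fold, 5 lone rows were higher and 5 lower (20% each), against 16.9% and 7.61% of all rows. With so few rows and 1 pooled value per group, this difference between lone and host rows is a description.

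SNORA15, within an intron of CCT6A, had 110.5 FPKM in ISOX cells and 34.4 FPKM in untreated cells, 3.21-fold higher. SNORD23, within GLTSCR2 (a nucleolar protein gene), had 1484 FPKM in ISOX cells and 740.9 FPKM in untreated cells, 2.003-fold higher. SNORD3A, a U3 RNA needed for cleavage of the precursor of ribosomal RNA and made from a promoter of its own, had 68.3 FPKM in ISOX cells and 34.1 FPKM in untreated cells, 2.001-fold higher. SNORD3B-1, SNORD3B-2, SNORD3C and SNORD3D, of the same length of 217 bases, were at 0 in both groups. The assignment of fragments between such copies is uncertain, so the value may not belong to SNORD3A alone. SCARNA5 had 1.16 FPKM in ISOX cells and 0.401 FPKM in untreated cells. SNORD23 and SNORD3A lay at the limit itself: after subtraction of the median of all rows their log2 ratios were both 0.80. SNORA33, within an intron of RPS12, was the lone row that was 2-fold or more lower, at 29.6 FPKM in ISOX cells and 104.2 FPKM in untreated cells, 3.52-fold lower.

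Smaller differences in both directions were given by the other lone rows with at least 10 FPKM in both groups. SNORD79 had 929.0 FPKM in ISOX cells and 633.8 FPKM in untreated cells, SNORA67 had 153.2 FPKM in ISOX cells and 117.1 FPKM in untreated cells, and SNORA69 had 97.1 FPKM in ISOX cells and 87.9 FPKM in untreated cells. These were higher in ISOX cells by less than 2-fold. SNORA14B had 27.4 FPKM in ISOX cells and 48.1 FPKM in untreated cells, SNORA71A had 44.0 FPKM in ISOX cells and 76.0 FPKM in untreated cells, and SNORD89 had 195.1 FPKM in ISOX cells and 257.2 FPKM in untreated cells. SNORA70, the most abundant box H/ACA row in both groups, had 227.5 FPKM in ISOX cells and 246.7 FPKM in untreated cells. SNORA6 had 24.1 FPKM in ISOX cells and 25.8 FPKM in untreated cells, and SNORA41 had 31.0 FPKM in ISOX cells and 31.8 FPKM in untreated cells. The last 3 differed by a log2 ratio between -0.12 and -0.04.

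SNORD76, a box C/D RNA of the GAS5 locus, was the highest lone row in both groups, at 3747 FPKM in ISOX cells and 6090 FPKM in untreated cells. It made up 40.2% of the summed FPKM of lone rows in ISOX cells and 51.2% in untreated cells. Since the FPKM of lone rows went with length, this is not a share of RNA molecules. All lone rows summed to 9327 FPKM in ISOX cells and 11883 FPKM in untreated cells, and without SNORD76 to 5581 FPKM in ISOX cells and 5793 FPKM in untreated cells, so that 1 row made most of that difference. At the same locus GAS5 and SNORD79 were higher in ISOX cells, by 1.43-fold and 1.47-fold, and SNORD76 was 1.63-fold lower. The other 6 lone rows of the locus (SNORD47, SNORD74, SNORD75, SNORD77, SNORD80 and SNORD81) were at 0 in both groups.

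Rows at 0 in 1 group reached high values in the other. With ISOX only, SNORD91B had 1300 FPKM, SNORD21 had 455.7 FPKM, SCARNA18 had 59.9 FPKM, SNORA45A had 43.9 FPKM and SNORA51 had 37.3 FPKM. In untreated cells only, SNORD99 had 1036 FPKM, SNORD14D had 733.1 FPKM, SNORD33 had 683.4 FPKM, SNORD83B had 365.7 FPKM and SNORD88C had 230.0 FPKM. No fold is given against a value of 0, and a row listed at 0 need not lack the RNA. By class, the 14 rows with a value in ISOX cells only were 11 SNORA, 2 SNORD and 1 SCARNA rows, and the 9 with a value in untreated cells only were 3 SNORA and 6 SNORD rows.

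The level of a lone row went with its length. In ISOX cells the median was 929.0 FPKM over 5 rows under 100 bases, 31.3 FPKM over 21 rows of 130 to 149 bases, and 1.56 FPKM over 11 rows of 189 to 420 bases. In untreated cells it was 658.6 FPKM over 8 rows under 100 bases, 48.1 FPKM over 15 rows of 132 to 149 bases and 0.492 FPKM over 9 rows of 207 to 420 bases. Spearman's rho of FPKM and length was -0.755 over 39 rows in ISOX cells and -0.842 over 34 rows in untreated cells. It is given without a p since these rows share their libraries and FPKM itself depends on length. The medians differed far more than the lengths, and the sources used here do not give how length was set for short transcripts. Levels of rows of unlike length can therefore not be compared as amounts of RNA. In the middle class, 14 of 21 rows in ISOX cells and 5 of 15 in untreated cells lay between 20 and 50 FPKM, a range chosen after the values were seen. The METTL12 and CCT6P1 rows also lay in this range in ISOX cells, METTL12 at 33.9 FPKM and CCT6P1 at 34.6 FPKM, and hold SNORA57 of 149 bases and SNORA22 of 134 bases. Whether the small RNA makes up the host value in these rows was not tested.

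**Figure D2:**
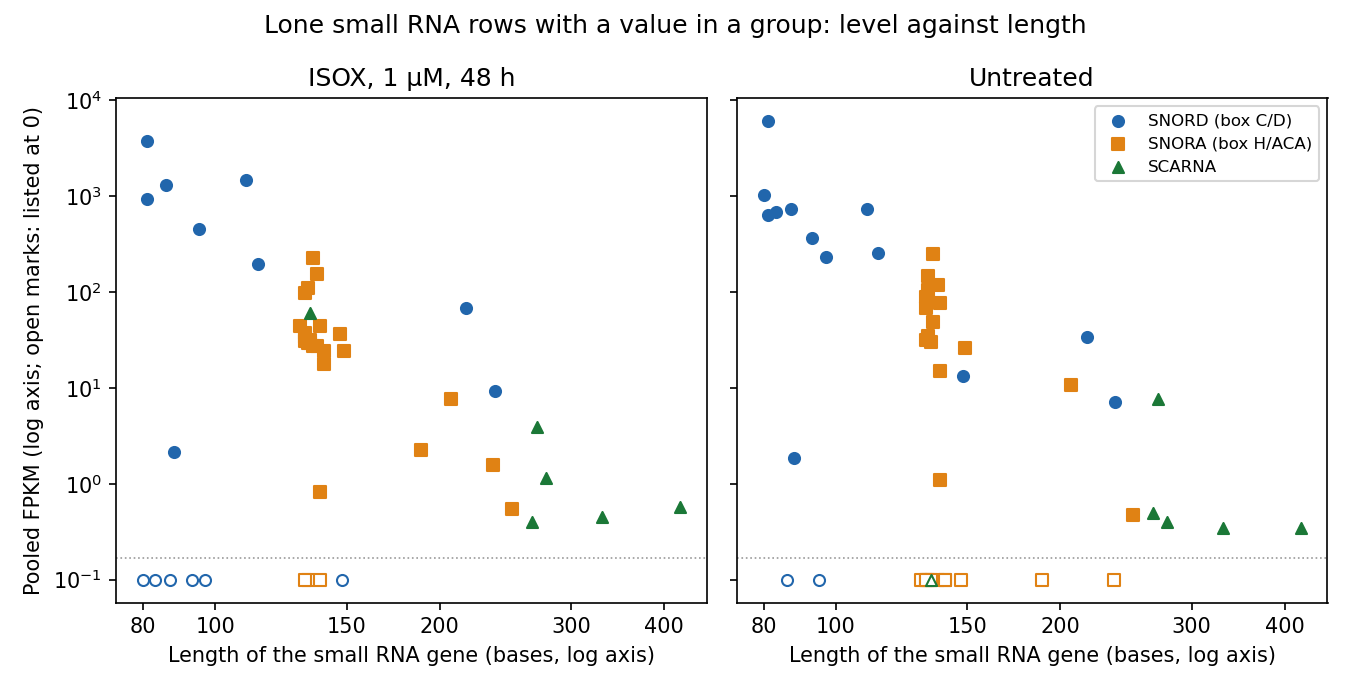
Pooled FPKM of the 48 lone small RNA rows with a value in at least 1 group against gene length (both axes log; left, ISOX; right, untreated). Open marks below the dotted line are rows at 0 in that group, and levels fall with length in both panels (rho -0.755 in ISOX cells and -0.842 in untreated cells).

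Small RNA rows were then set beside the gene that contains them. Of the 48 lone rows with a value, 45 lie within a gene with a row of its own, and 12 of these 45 lie in a ribosomal protein gene. The containing genes made up 38 rows. In 22 pairs both rows had a ratio. The containing rows spanned log2 ratios of -0.21 to 0.99, with a median of 0.27, and the small RNA rows spanned -1.82 to 1.68, with a median of -0.04. The small RNA had the higher log2 ratio in 7 pairs and the lower in 15, the signs were opposite in 11, and the median difference (small RNA minus containing row) was -0.29. In 6 pairs the difference was 1 or more on the log2 scale.

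**Figure D3:**
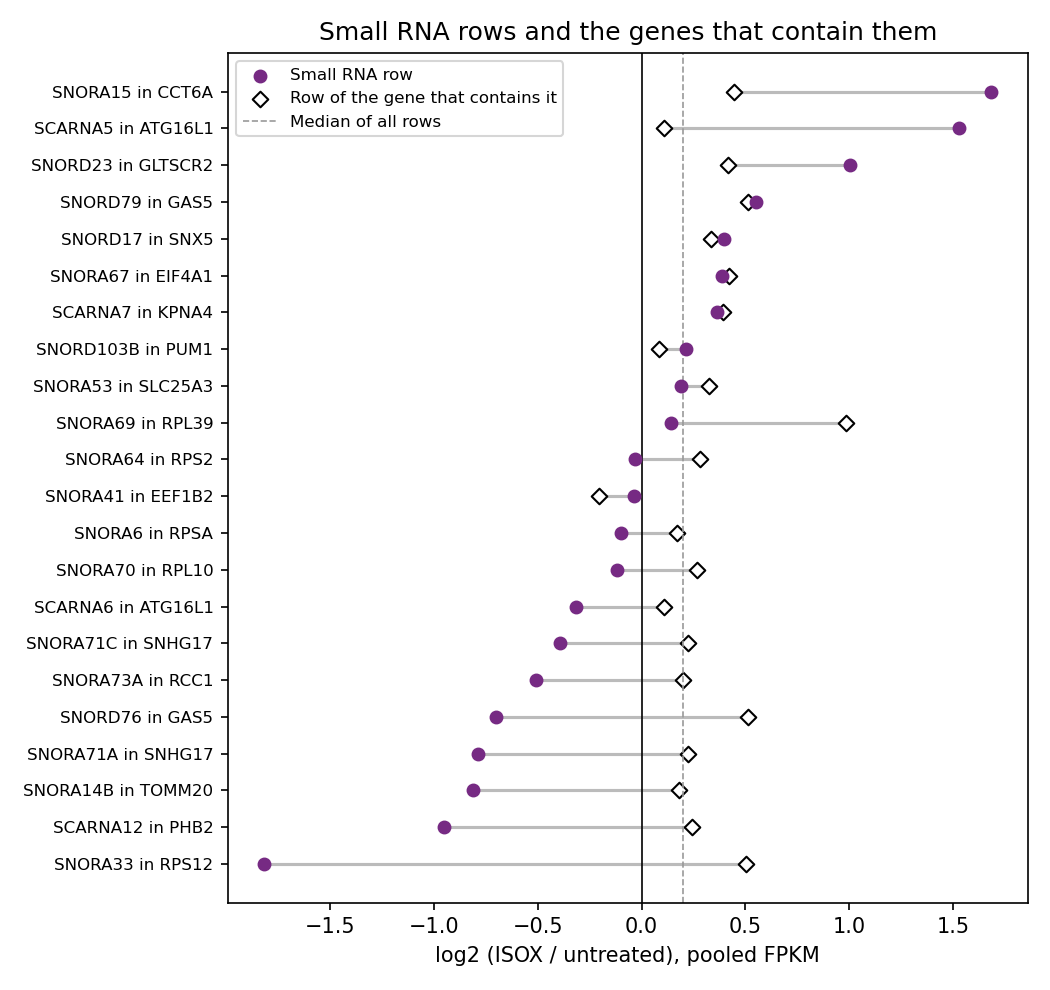
Log2 ratio of ISOX over untreated FPKM for 22 small RNA rows (filled) and the rows of the genes that contain them (open diamonds), ordered by the small RNA. The dashed line is the median of all rows (0.20). The diamonds stay between -0.21 and 0.99 while the small RNA rows run from -1.82 (SNORA33) to 1.68 (SNORA15).

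Named are the 8 widest pairs in which both rows had at least 10 FPKM in a group. The widest was SNORA33 and RPS12, a ribosomal protein gene, with a difference of -2.32. RPS12 had 4607 FPKM in ISOX cells and 3251 FPKM in untreated cells, higher where its snoRNA was lower. SNORA15 and CCT6A differed by 1.24, the small RNA being 3.21-fold and the containing gene 1.36-fold higher. SNORD76 and GAS5 differed by -1.21, and SNORA71A and SNHG17 by -1.02. SNORA14B differed by -0.99 from TOMM20, a mitochondrial import receptor gene with 82.8 FPKM in ISOX cells and 73.2 FPKM in untreated cells. SNORA69 differed by -0.84 from RPL39, which had 13331 FPKM in ISOX cells and 6729 FPKM in untreated cells. The remaining 2 of the 8 were SNORA73A, a U17 RNA with 7.58 FPKM in ISOX cells and 10.8 FPKM in untreated cells, at -0.71 from RCC1, and SNORD23 at 0.59 from GLTSCR2. At lower levels SCARNA5 differed from ATG16L1 by 1.42, SCARNA12, with 3.92 FPKM in ISOX cells and 7.57 FPKM in untreated cells, differed from PHB2 by -1.19, and SNORA71C differed from SNHG17 by -0.62.

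Small RNAs at 0 in 1 group mostly lay in genes with similar values in both groups. The containing rows of the 14 small RNAs with a value in ISOX cells only had log2 ratios between -0.09 and 0.64. Those of the 9 with a value in untreated cells only had ratios between -1.83 and 0.82. SNORD99 and SNHG12 formed the pair in which the containing row was past 2-fold, and both were lower in ISOX cells. SNORD21 lies in RPL5, which had 1134 FPKM in ISOX cells and 809.7 FPKM in untreated cells. SNORD33 lies in RPL13A, which had 1943 FPKM in ISOX cells and 1622 FPKM in untreated cells although its snoRNA was at 0 with ISOX. SNORD14D lies in HSPA8, a chaperone gene with 602.0 FPKM in ISOX cells and 573.8 FPKM in untreated cells. TCP1 contains SNORA29, seen at 24.1 FPKM in ISOX cells only, and SNORA20, seen at 68.7 FPKM in untreated cells only, while TCP1 had 126.9 FPKM in ISOX cells and 105.4 FPKM in untreated cells.

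The genes for proteins that bind, build and trim snoRNAs differed by less than 2-fold between the groups. Of 37 listed, 36 were found with values in both groups, 0 were 2-fold or more higher, against 6.82% of all rows, and 0 were 2-fold or more lower, against 3.97%. A log2 ratio above 0 was given by 30 of the 36, a larger share than the 71.1% of all rows, and the median was 0.21, close to that of all rows. Among the proteins of box C/D particles, the methyltransferase gene FBL had 205.2 FPKM in ISOX cells and 192.9 FPKM in untreated cells, NOP56 had 64.3 FPKM in ISOX cells and 68.4 FPKM in untreated cells, and NOP58 had 33.2 FPKM in ISOX cells and 29.8 FPKM in untreated cells. SNU13, which binds the kink formed by boxes C and D, had 185.0 FPKM in ISOX cells and 124.9 FPKM in untreated cells. All 4 genes of box H/ACA particles were higher by less than 2-fold. The pseudouridine synthase gene DKC1 had 62.3 FPKM in ISOX cells and 48.8 FPKM in untreated cells, NHP2 had 141.3 FPKM in ISOX cells and 119.2 FPKM in untreated cells, and GAR1, in a row joined with RRH, had 22.1 FPKM in ISOX cells and 14.4 FPKM in untreated cells. NOP10 had the widest ratio of all 36 genes, 1.76-fold, at 391.6 FPKM in ISOX cells and 221.9 FPKM in untreated cells.

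Assembly factors ranged from a log2 ratio of -0.05 for PIH1D1 to 0.54 for ZNHIT3, with RUVBL2 at 0.48, ZNHIT6 at 0.50, RUVBL1 at 0.40, NUFIP1 at 0.39, RPAP3 at 0.36, NOLC1 at 0.14, SHQ1 at 0.07 and NAF1 at -0.01. The RUVBL genes encode the ATPases that act with the R2TP complex in loading snoRNA proteins. Factors of the Cajal body and of cap modification lay between -0.03 for WRAP53, whose protein brings RNAs to Cajal bodies, and 0.37 for PHAX, an export adaptor, with TGS1 at 0.22 and the coilin gene COIL at 0.11. Genes of the trimming of RNA ends lay between -0.06 for TENT4A and 0.43 for DIS3, a nuclease of the exosome, with PARN at 0.31, TENT4B at 0.21 and EXOSC10 at 0.08. Nonsense-mediated decay genes, whose products degrade many spliced hosts, had a median of 0.07 over 9 genes. They ranged from -0.03 for SMG6 to 0.24 for UPF3B, with SMG1 at 0.23, UPF3A at 0.22, UPF2 at 0.11, SMG8 at 0.07, SMG9 at 0.06, SMG5 at 0.02 and UPF1 at 0.02. Together the 36 genes lay between -0.09 and 0.82, and the host rows between -1.83 and 3.59.

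**Figure D4:**
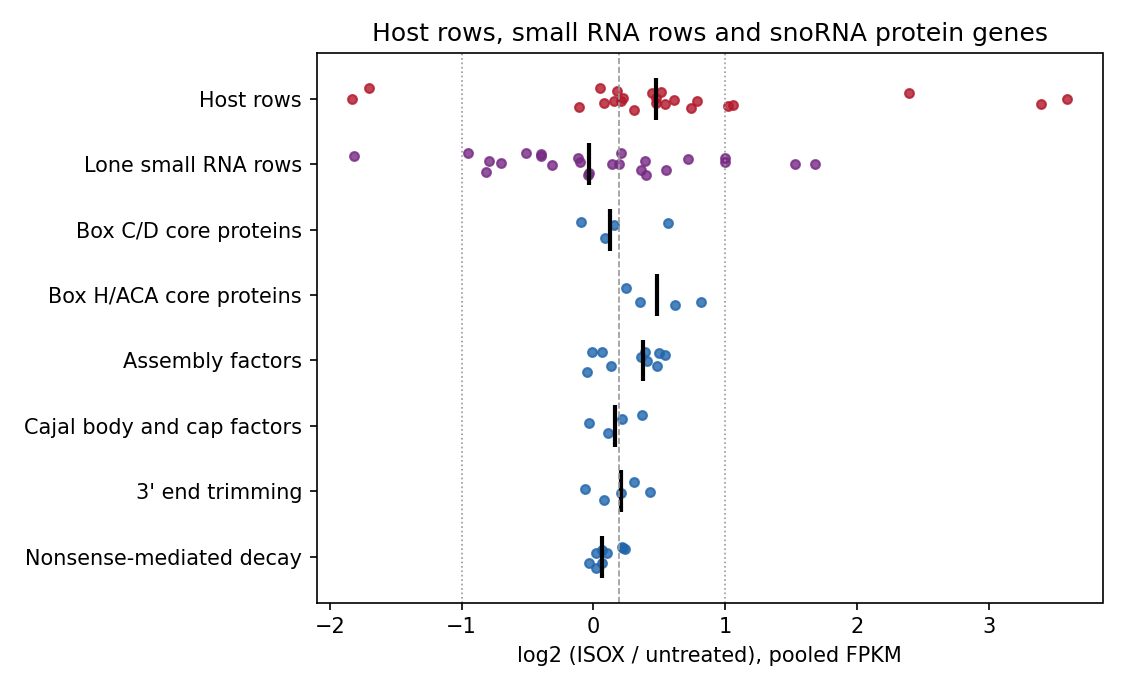
Log2 ratio of ISOX over untreated FPKM for host rows, lone small RNA rows and 6 lists of snoRNA-related protein genes (points, 1 row each, shifted vertically for visibility; black bars, medians; dashed line, median of all rows at 0.20; dotted lines, 2-fold). Host and lone rows spread past 2-fold on both sides, and the protein genes stay between -0.09 and 0.82.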

How the data were processed

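RNA of CD18/HPAF cells was sequenced by the authors (TruSeq RNA kit, pairs of 75 bases). Per the submitters' notes, TopHat and Bowtie, then Cufflinks and Cuffdiff, were run on build hg38 (versions, strand and filters: not given in the sources used here). FPKM values were deposited pooled into 1 value per row and group, so no value per sample, depth or interval was at hand. The table also holds the authors' own fold changes, test statistics, p-values, q-values and calls, which were not used.

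Groups were taken from the treatment stated for each sample. Log2 ratios were computed where both FPKM values were above 0, with no pseudocount, and a row is called higher or lower at 2-fold or more. No test was run. The locus of the table is that of all overlapping rows, counted from 0, so gene spans were taken from GENCODE release 29 and counted from 1. Place in an exon refers to any transcript, including those that retain introns. Lengths came from RefSeq and otherwise from GENCODE: of 104 lone rows alone in a short locus, 99 had the RefSeq length and 32 the GENCODE length. A sequence was at hand for 44 of the 48 lone rows with a value.

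Members, lists and settings were chosen with earlier results of these data known. Named were all SNHG-type hosts, the 8 highest lone rows, the 8 with the largest difference each way among those with 10 FPKM or more in both groups, the 5 highest at 0 in the other group, the 8 widest pairs with 10 FPKM or more in a group for both rows, and the protein lists. SMN1 was not analysed here, and 1 gene of the lists is not reported here. Settings varied were pseudocounts of 1 and 0.1 FPKM, minimum levels, centring on the median, single names and a 1.5-fold limit. The computation was tested on simulated data. Python 3.11.15 was used with numpy 2.4.6, pandas 2.3.3, scipy 1.17.1 and matplotlib 3.10.9.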

Additional observations from a re-analysis of the deposited data

How the results depend on the processing

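Host rows 2-fold or more higher numbered 5, and 3 with at least 10 FPKM in both groups, 3 after subtraction of the median log2 ratio of all rows, 3 among rows with a single name and 8 at 1.5-fold. Host rows 2-fold or more lower numbered 2, and 1 with 1 FPKM added, 1 with at least 10 FPKM in both groups and 0 among rows with a single name. The median log2 ratio of host rows was 0.48, and 0.41 with 1 FPKM added, 0.46 with 0.1 FPKM added, 0.28 after subtraction of the median and 0.51 for single names. It stayed above 0 in each of these settings. Lone rows 2-fold or more higher numbered 4, and 2 with 1 FPKM added or after subtraction of the median. Those lower numbered 1, and 3 after subtraction of the median (SNORA33, with SNORA14B and SCARNA12) and 5 at 1.5-fold. Their median log2 ratio was -0.0324, and -0.0314 with 1 FPKM added, -0.0323 with 0.1 FPKM added, -0.0385 with at least 1 FPKM in a group or 10 FPKM in both, and -0.23 after subtraction of the median. The causes were not tested. No paired analysis was possible because the deposited values are pooled over the samples of each group, and for the same reason no sample could be left out. The number of fragments behind a value is unknown, so it cannot be said which values of short rows rest on few fragments.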
